A study of Mus musculus with 6 samples.

Results

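Malat1, Neat1 and 7 host genes of small nucleolar RNAs (snoRNAs), Gas5, Snhg1, Snhg3, Snhg5, Snhg6, Snhg8 and Snhg12, are long noncoding RNAs. They were found in the gene table by their Ensembl identifiers, read without the version number and matched to symbols in GENCODE M21. All 9 were found among 55487 genes. The rule takes them by symbol, with no threshold on a measured value, but they were chosen with earlier results of these data known. The study set a mouse macrophage line with a RhoA knockout beside an unedited control, with bone destruction in rheumatoid arthritis as its stated background. RhoA is a small GTPase best known for its control of contractile actin. All 6 samples were RAW264.7 cells, a tumour-derived mouse macrophage line that can form osteoclast-like cells, and all 6 were labelled as treated with RANKL and M-CSF, which together turn macrophage precursors into osteoclasts. The 3 control samples had the genotype wt, and the study's design text describes the control as untreated, while the other 3 had the genotype RhoA knockout, made with a tool named SMART-Cas9.

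No sample given Cas9 without the knockout was among the 6, so an effect of the knockout and one of the editing tool cannot be told apart. Nothing in the labels says whether the edited cells were 1 clone or a pool, or whether the replicates were separate cultures. The p-values therefore reflect only how these 6 samples scatter, and that scatter may be technical.

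The targeted gene was checked first. In the controls, Rhoa had 1655, 1510 and 1440 counts, and in the libraries labelled RhoA knockout 2805, 2670 and 2395. On the scaled level (CPM, a gene's counts scaled to a common library size with edgeR's TMM factors) this was 23.9 ± 2.22 against 31.8 ± 2.18 (SD, n = 3 each), a log2 fold change of 0.41 ± 0.12 (SE; edgeR, adjusted p = 0.0136). Rhoa was thus not lower in the libraries that carry the knockout label, and a gene count does not show whether the encoded protein was disrupted. The groups are therefore called by their labels throughout. Without control replicate 1 the adjusted p of Rhoa was 0.0645, and without knockout-labelled replicate 1 it was 0.0741. With the trend over exon length removed its log2 fold change was 0.73 (edgeR, adjusted p = 0.000425). Scaling by library totals alone gave 0.59 (edgeR, adjusted p = 0.00825).

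The libraries held 60198645 to 81830819 counts, and a floor of 3 counts corresponded to 0.0367 to 0.0498 CPM. The 10 genes with the most counts took 62.0% to 63.2% of the counts in the control libraries and 44.1% to 47.8% in the others, and mitochondrial genes took 7.01% to 8.69% against 9.95% to 12.3%. Replicate 3 stood apart from replicates 1 and 2 in both groups. The chi-square per degree of freedom between replicates over genes was 87.6 or more for pairs with replicate 3, against 21.9 and 28.0 for the other pairs. Each of the 10 macrophage markers had a count in at least 1 library, and their summed level, scaled by library totals, was 16234 to 19372 CPM in the control libraries and 92737 to 105699 CPM in the others, most of it lysozyme (Lyz2, with TMM-scaled means of 16827 and 88257 CPM). Of the 9 markers tested, 3 were called higher, 5 lower and 1 not called, and 3 were lower without knockout-labelled replicate 3, without replicate 3 of both groups or with library totals alone. Among fibroblast markers, Col1a1, Col1a2, Col3a1, Dcn and Pdgfra were at 0 and the sum of 7 was at most 0.440 CPM in any library. Cd3e, Cd3g, Cd4, Cd8a and Trac were at 0 among 7 T cell markers, whose sum was 1.83 to 2.95 CPM against 1.36 to 2.13 CPM. Cd79a, Ms4a1 and Pax5 were at 0 among 5 B cell markers (at most 0.0501 CPM), and Krt19 and Cdh1 among 5 epithelial markers (at most 1.39 CPM).

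Malat1 is among the most abundant noncoding RNAs of mammalian nuclei and gathers in nuclear speckles, bodies rich in splicing factors. Neat1 is the scaffold of paraspeckles, nuclear bodies built on its long form by RNA-binding proteins. In macrophages both are known to change with inflammatory stimulation. A snoRNA host gene carries snoRNAs in its introns: splicing and trimming release the snoRNA, which guides ribose methylation (box C/D class) or pseudouridylation (box H/ACA class) of ribosomal RNA. The spliced exons that remain are often exported, loaded onto ribosomes and degraded by nonsense-mediated decay, so the level of such an RNA depends on translation as well as on transcription. Many hosts start with an oligopyrimidine tract like that of ribosomal protein genes.

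The hosts differed in their cargo. Within the bounds of the 7 hosts GENCODE M21 lists 29 snoRNA annotations at 27 loci: 9 loci in Gas5, 8 in Snhg1, 4 in Snhg12, 2 each in Snhg3 and Snhg5, and 1 each in Snhg6 and Snhg8. Of the 29 annotations, 17 held the letters TGATGA in their first 20 bases together with CTGA in their last 15, the 2 box motifs of the C/D class as searched on the RNA's own strand. Another 6 held ACA exactly 3 bases before the end, the mark of the H/ACA class, and 6 held neither pattern. Of the 29, 27 overlapped an exon of at least 1 annotated transcript of their host, the 4 printed below included, and 2 lay in introns only. These examples are printed to show the 2 classes, with TGATGA and CTGA or the ACA in capitals. Snord80 (chr1:161037604-161037680, plus strand) and Snord47 (chr1:161038082-161038158, plus strand) lie in Gas5, Snord50a (chr9:88521529-88521600, minus strand) in Snhg5 and Snora24 (chr3:123507937-123508066, minus strand) in Snhg8, all on GRCm38.
Snord80: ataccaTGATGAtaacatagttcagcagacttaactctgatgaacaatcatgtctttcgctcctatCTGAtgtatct
Snord47: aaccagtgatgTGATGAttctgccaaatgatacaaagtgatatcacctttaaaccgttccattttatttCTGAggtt
Snord50a: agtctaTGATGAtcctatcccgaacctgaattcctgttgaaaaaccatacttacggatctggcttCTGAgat
Snora24: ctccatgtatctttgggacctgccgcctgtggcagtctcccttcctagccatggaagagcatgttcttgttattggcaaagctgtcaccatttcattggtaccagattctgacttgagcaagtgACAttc
The snoRNAs themselves were almost unmeasured. Of the 29 annotations, 26 never exceeded 1 count in any library, and the largest count was 3. The values below are counts of the host genes and say nothing about the amounts of the snoRNAs.

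The start of each host is shown because the tract there is the feature these genes are known for. RefSeq start sites on GRCm38.p6 were available for 7 of the 9 genes; Neat1 and Snhg6 have no entry. Each line runs from 45 bases before the start to 25 bases from it. Capitals mark TATA, a core promoter motif, where it lies wholly between 45 and 16 bases before the start. They also mark any run of 5 or more C or T that begins within 10 bases of the start. Gas5 is shown at the second of its 2 starts.
Gas5, chr1:161035121-161035190, plus strand: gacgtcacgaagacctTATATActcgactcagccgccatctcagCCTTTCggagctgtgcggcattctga
Snhg1, chr19:8723442-8723511, plus strand: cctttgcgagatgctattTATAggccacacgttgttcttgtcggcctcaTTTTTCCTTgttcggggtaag
Snhg12, chr4:132308633-132308702, plus strand: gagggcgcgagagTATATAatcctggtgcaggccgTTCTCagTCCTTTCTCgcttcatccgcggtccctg
Snhg5, chr9:88522873-88522942, minus strand: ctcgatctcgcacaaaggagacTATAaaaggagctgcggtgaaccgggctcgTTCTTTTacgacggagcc
Snhg8, chr3:123508312-123508381, minus strand: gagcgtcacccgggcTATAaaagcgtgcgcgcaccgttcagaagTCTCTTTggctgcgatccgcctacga
Snhg3, chr4:132353662-132353731, minus strand: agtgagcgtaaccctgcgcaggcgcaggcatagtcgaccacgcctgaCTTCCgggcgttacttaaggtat
Malat1, chr19:5802648-5802717, minus strand: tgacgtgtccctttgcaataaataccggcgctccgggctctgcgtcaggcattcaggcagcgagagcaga
All 6 hosts with an entry had a C or T run at a start, and 5 of the 6 also had TATA, the exception being Snhg3. Over all 32851 RefSeq promoters the run was found in 36.7%, TATA in 6.72% and both in 2.55%, and over 77 promoters of cytosolic ribosomal protein genes in 54.5%, 9.09% and 7.79%. Malat1 and the other start of Gas5 had neither. The hosts were counted by gene, with either start of Gas5 enough, whereas the shares were counted by promoter. The search was chosen after the sequences had been seen, TATA reads the same on both strands, and the run was searched on the gene's strand only. A match of letters describes the window and is no evidence of a bound factor.

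The levels spanned 4 orders of magnitude. Between genes they are compared as CPM per kilobase of the union of annotated exons. In the control libraries Malat1 led with 11140 ± 524 CPM per kilobase (SD, n = 3), followed by Neat1 with 19 ± 2.0, Gas5 with 6.39 ± 0.440, Snhg1 with 3.91 ± 0.665 and Snhg5 with 2.66 ± 0.475. Snhg3 (1.53 ± 0.282), Snhg8 (1.40 ± 0.541), Snhg12 (1.19 ± 0.218) and Snhg6 (0.954 ± 0.395) came last, and each of these 4 overlapped its neighbour in the order. The order differed in the libraries labelled RhoA knockout. There Malat1 (7598 ± 1575 CPM per kilobase) and Neat1 (6.57 ± 0.824) still led, but Snhg3 stood next with 3.63 ± 0.462, overlapping Gas5 with 3.15 ± 0.578. Snhg5 (2.15 ± 0.227), Snhg1 (1.44 ± 0.22) and Snhg8 (1.27 ± 0.448) followed, and Snhg6 (0.291 ± 0.105) and Snhg12 (0.235 ± 0.0905) were lowest. Snhg1 overlapped Snhg8, and Snhg6 overlapped Snhg12.

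**Figure D1:**
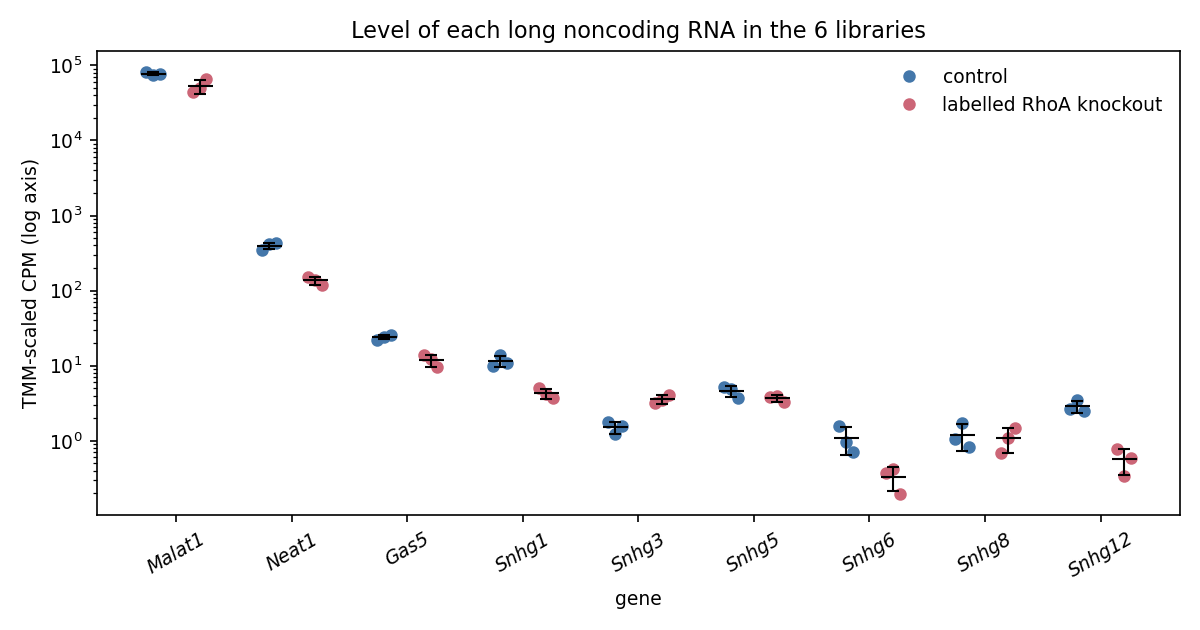
TMM-scaled CPM of the 9 genes (log axis) in each library, with a point per library and a line at the mean of the 3 control and the 3 knockout-labelled libraries and bars of 1 SD. Malat1 lies far above the others, Malat1, Neat1, Gas5, Snhg1, Snhg6 and Snhg12 are separated downwards, Snhg3 is separated upwards, and the groups overlap for Snhg5 and Snhg8.

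Of the 9 genes, 6 fell, 1 rose and 2 did not pass the test when the libraries labelled RhoA knockout were set against the controls. All 9 passed the filter on low counts. The test was edgeR's quasi-likelihood test with Benjamini-Hochberg adjustment at 0.05 over the 12930 genes tested, of which 43.2% were called, 22.3% lower and 21.0% higher. The groups did not overlap for 7 of the 9 genes, against 55.8% of all genes tested. The median log2 fold change of the 9 was −1.02, against −0.03 over all genes tested. Because the 9 genes were chosen with earlier results of these data known, these comparisons with all genes are description only. In bulk RNA, fewer cells of a type and less RNA per cell cannot be told apart, and this holds for each change below. Scaling by library totals alone moved the median of all genes by 0.18 and the share of calls that were higher from 48.5% to 59.8%, and 5 of the 9 genes were then called lower and 1 higher.

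Malat1 (ENSMUSG00000092341.3, chr19:5795690-5802672, minus strand, GRCm38) was the gene with the third highest level in both groups. The controls gave it 6324579, 4399960 and 4493098 counts, or 7.91%, 7.31% and 6.80% of all counts. In the knockout-labelled libraries it had 3587937, 4493653 and 4957475 counts, or 5.0%, 5.64% and 6.06%. The scaled levels were 81967, 75166 and 76240 CPM against 43722, 50266 and 65181 CPM. The groups did not overlap, and knockout-labelled replicate 3 lay nearest to the controls. Malat1 fell from 77791 ± 3656 to 53056 ± 10998 CPM (SD, n = 3 each), a log2 fold change of −0.55 ± 0.16 (SE; edgeR, adjusted p = 0.0154; 95% interval −0.90 to −0.20). This call was the least stable of the 6 falls together with that of Snhg6. The adjusted p was 0.0724 without control replicate 1, 0.0801 without knockout-labelled replicate 1 and 0.0580 without knockout-labelled replicate 2, within a range of 0.000168 to 0.281 over 17 alternatives.

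Reads from Malat1 may also stand under a second entry. Gm37376, an unclassified model of 453 bp on the opposite strand wholly inside Malat1, had counts of 310305, 135140 and 246846 in the controls and of 11507, 0 and 271990 in the knockout-labelled libraries. That was 3.07% to 5.49% of the Malat1 count in the controls, and 0.321%, 0% and 5.49% in the others. Knockout-labelled replicates 1 and 2 stood apart from the other 4 libraries, and Gm37376 was not called (log2 fold change −1.50 ± 2.64; edgeR, adjusted p = 0.701). No source used here gives the strand setting of the counting, so reads of Malat1 and of Gm37376 cannot be told apart. With the 2 counts summed, the calls of all 9 genes were the same.

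Neat1 (ENSMUSG00000092274.3, chr19:5824708-5845478, minus strand) fell further than its neighbour. The control libraries held 348.0, 414.6 and 424.3 CPM and the knockout-labelled ones 152.8, 137.7 and 118.7 CPM, with a wide gap between the groups. The mean fell from 395.6 ± 41.5 to 136.4 ± 17.1 CPM (SD, n = 3 each), a log2 fold change of −1.54 ± 0.13 (SE; edgeR, adjusted p = 2.03e-06; 95% interval −1.82 to −1.25). By level, Neat1 went from rank 148 to rank 494. The short and the long form of Neat1 share the same 5′ part, and a count per gene does not separate them.

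Because both RNAs were counted in the same library, their ratio does not depend on scaling. Each Neat1 count was matched by 235.5, 181.3 and 179.7 Malat1 counts in the control libraries and by 286.1, 365.0 and 549.2 in the knockout-labelled ones. Every knockout-labelled library lay above every control, and knockout-labelled replicate 3 was the highest. The mean ratios were 198.8 ± 31.8 and 400.1 ± 135.0 (SD, n = 3 each), a difference of 0.97 on the log2 scale (exact two-sided permutation test, p = 0.1, the smallest that 3 against 3 allows). With Gm37376 added to Malat1 the difference was 0.93.

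**Figure D2:**
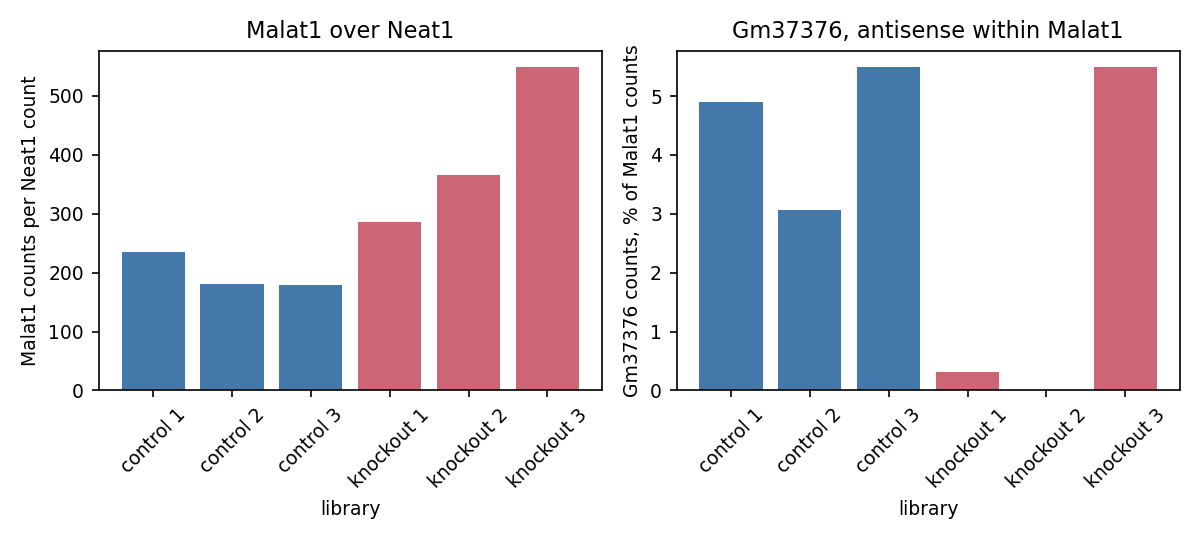
Left, Malat1 counts per Neat1 count in each of the 6 libraries, with bars from 0. The knockout-labelled libraries reach 286.1 to 549.2 and the controls 179.7 to 235.5. Right, counts of the antisense model Gm37376 as a percent of Malat1 counts, which are near 0 in knockout-labelled replicates 1 and 2 and 5.49% in replicate 3.

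The nearest tested gene on the Neat1 side of the pair on chromosome 19 was not called. This gene, Frmd8, had 921, 534 and 541 counts against 731, 997 and 756 (log2 fold change −0.01 ± 0.17; edgeR, adjusted p = 0.960). Frmd8os, which starts 145 bp from Neat1 on the opposite strand, held 0 to 15 counts and was below the filter. The small RNA models inside Malat1 and Neat1 (Gm27694, Gm27533, Gm27505 and Gm28006) held 0 or 1 count in every library.

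Long transcripts were lower as a class in the knockout-labelled libraries. The median log2 fold change was 0.25 over 1375 genes with up to 1000 bp of exon, 0.36 up to 2000 bp, 0.18 up to 4000 bp, −0.15 up to 8000 bp and −0.53 over 1918 longer genes. Malat1 has 6983 bp and Neat1 20771 bp of exon, while the hosts have 853 to 3760 bp. With the trend over length removed, Neat1 was still lower (log2 fold change −0.84; edgeR, adjusted p = 0.000177) and Malat1 was no longer called (−0.26, adjusted p = 0.281). The log2 fold changes of the hosts then lay between −2.47 for Snhg12 and 1.06 for Snhg3, and their calls were the same. The part of RNA length or integrity in the fall of Malat1 and Neat1, and in the ratio between them, was not tested.

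**Figure D3:**
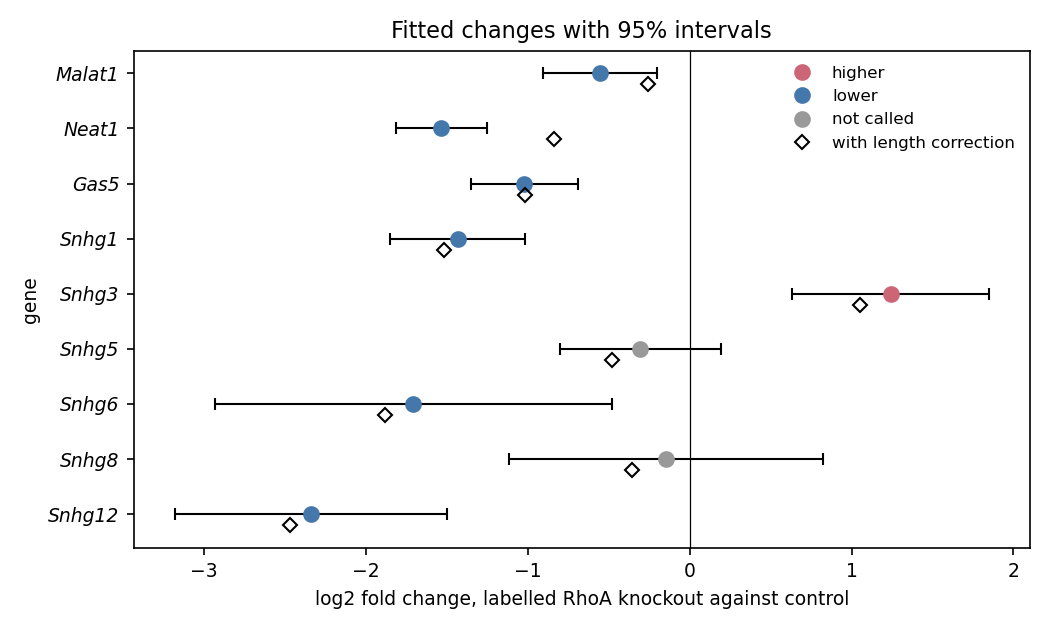
Fitted log2 fold change of each gene, knockout-labelled against control libraries, with 95% intervals (filled points, coloured by call) and the value with length correction (open diamonds). Malat1 and Neat1 move towards 0 with the correction, and the 7 hosts move little.

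Among the 7 hosts, 4 fell, 1 rose and 2 were not called, with a median log2 fold change of −1.02. Their summed level was 44.6, 50.4 and 45.7 CPM in the control libraries and 27.7, 25.7 and 22.8 CPM in the knockout-labelled ones, with no overlap. The decrease was not shared by all: Snhg3 went the other way, and Snhg5 and Snhg8 gave no call.

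Gas5 (ENSMUSG00000053332.13, chr1:161034422-161038539, plus strand), named for its build-up in growth-arrested cells, had the highest CPM of the hosts in both groups. Per kilobase, Gas5 led the hosts in the controls and stood below Snhg3, with overlap, in the knockout-labelled libraries. Its levels were 22.3, 24.3 and 25.5 CPM in the control libraries and 13.8, 12.1 and 9.52 CPM in the knockout-labelled ones. The groups were well apart, and knockout-labelled replicate 3 was the lowest. The mean fell from 24.0 ± 1.65 to 11.8 ± 2.17 CPM (SD, n = 3 each), a log2 fold change of −1.02 ± 0.15 (SE; edgeR, adjusted p = 0.000177; 95% interval −1.35 to −0.69). In rank by level it went from 1720 to 2995.

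Snhg1 (ENSMUSG00000108414.1, chr19:8723475-8726443, plus strand) carries 8 snoRNA loci. It was measured at 10.06, 13.8 and 10.9 CPM in the control libraries and at 4.97, 4.23 and 3.67 CPM in the knockout-labelled ones. No control library came near the knockout-labelled values. Snhg1 fell from 11.6 ± 1.97 to 4.29 ± 0.654 CPM (SD, n = 3 each), a log2 fold change of −1.43 ± 0.19 (SE; edgeR, adjusted p = 7.87e-05; 95% interval −1.85 to −1.02).

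Snhg12 (ENSMUSG00000086290.9, chr4:132308623-132311024, plus strand), with 4 snoRNA loci, had the largest fitted fall of the 9. The controls gave 204, 203 and 147 counts and the knockout-labelled libraries 63, 30 and 45, or 2.64, 3.47 and 2.49 CPM against 0.768, 0.336 and 0.592 CPM. Every control library lay above 2 CPM and every other library below 1 CPM. The mean fell from 2.87 ± 0.524 to 0.565 ± 0.217 CPM (SD, n = 3 each), a log2 fold change of −2.34 ± 0.38 (SE; edgeR, adjusted p = 0.000388; 95% interval −3.18 to −1.50).

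Snhg6 (ENSMUSG00000098234.7, chr1:9941959-9944118, minus strand) carries 1 snoRNA locus and had the lowest control level per kilobase of the 9. Its counts were 123, 57 and 42 against 31, 38 and 15, or 1.59, 0.974 and 0.713 CPM against 0.378, 0.425 and 0.197 CPM. The groups did not overlap, but control replicate 1 stood well above the other controls. The mean fell from 1.09 ± 0.453 to 0.333 ± 0.120 CPM (SD, n = 3 each), a log2 fold change of −1.71 ± 0.56 (SE; edgeR, adjusted p = 0.0273; 95% interval −2.94 to −0.48). The adjusted p was 0.149 without control replicate 1, 0.0517 without knockout-labelled replicate 1, 0.0769 without knockout-labelled replicate 3 and 0.0618 with library totals alone, within a range of 0.0141 to 0.149 over 16 alternatives. Mcmdc2, whose exons overlap those of Snhg6 by 127 bp on the opposite strand, had 0 counts in all 6 libraries.

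Snhg3 (ENSMUSG00000085241.7, chr4:132348014-132353686, minus strand) was the host that rose. The controls gave 136, 71 and 92 counts and the knockout-labelled libraries 263, 309 and 311, or 1.76, 1.21 and 1.56 CPM against 3.20, 3.46 and 4.09 CPM. All 3 knockout-labelled libraries lay above all 3 controls. The mean rose from 1.51 ± 0.278 to 3.58 ± 0.456 CPM (SD, n = 3 each), a log2 fold change of 1.24 ± 0.28 (SE; edgeR, adjusted p = 0.00334; 95% interval 0.63 to 1.85). Snhg3 and Snhg12 lie near each other on chromosome 4, on opposite strands, and moved in opposite directions: Snhg3 had 0.667, 0.35 and 0.626 counts per Snhg12 count in the control libraries and 4.17, 10.3 and 6.91 in the others.

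Snhg3 shares sequence with other genes, so its value is uncertain. Its exons overlap those of Rcc1, which encodes the exchange factor of the GTPase Ran, by 135 bp on the same strand. Rcc1 rose as well, with 239, 253 and 155 counts against 538, 484 and 329 (log2 fold change 0.70 ± 0.25; edgeR, adjusted p = 0.0435). Its call was lost without control replicate 1 (adjusted p = 0.120) or 3 (0.127), without knockout-labelled replicate 1 (0.190) or 2 (0.104), and without replicate 3 of both groups (0.0675). Gm17300, a noncoding gene on the opposite strand with 705 bp of shared exon, held 114, 66 and 47 counts against 110, 229 and 56, which is 18.0% to 93.0% of the Snhg3 count. It was not called (log2 fold change 0.45 ± 0.47; adjusted p = 0.483). How reads in the shared stretches were assigned was not tested.

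Snhg5 and Snhg8 gave no call. Snhg5 (ENSMUSG00000097195.10, chr9:88521050-88522929, minus strand) was measured at 5.21, 4.92 and 3.67 CPM in the control libraries and at 3.89, 4.0 and 3.27 CPM in the knockout-labelled ones, and control replicate 3 lay among the latter. Its means were 4.60 ± 0.821 and 3.72 ± 0.392 CPM (SD, n = 3 each), with a log2 fold change of −0.31 ± 0.23 (SE; edgeR, adjusted p = 0.311). The 95% interval of −0.80 to 0.19 leaves out the fitted value of Gas5 (−1.02) but overlaps the Gas5 interval of −1.35 to −0.69. A difference between Snhg5 and Gas5 was not tested. Another gene, 9330159M07Rik, matches Snhg5 at 96.1% identity over 233 bp and held 1.61% to 10.2% of its count, so the Snhg5 value is uncertain over that stretch. Snhg8 (ENSMUSG00000104960.1, chr3:123507552-123508404, minus strand) held 82, 100 and 48 counts against 57, 97 and 111, and the groups overlapped fully. Its means were 1.20 ± 0.461 and 1.08 ± 0.382 CPM (SD, n = 3 each), and the 95% interval of its log2 fold change (−0.15 ± 0.44; edgeR, adjusted p = 0.820) ran from −1.12 to 0.82, wide enough to hold changes in either direction.

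Genes that start next to a host were read as well. Slc3a2, the heavy chain of several amino acid transporters, starts 106 bp from Snhg1 on the opposite strand and fell from 347.2 ± 75.8 to 237.9 ± 21.3 CPM (log2 fold change −0.55 ± 0.15; edgeR, adjusted p = 0.0105), and by 0.35 on the log2 scale without control replicate 3. Snhg1 had 0.0336, 0.0449 and 0.0251 counts per Slc3a2 count in the control libraries and 0.0225, 0.0183 and 0.0140 in the others, so all 3 knockout-labelled libraries lay below all 3 controls in this ratio. Zbtb37, a zinc finger gene that starts 427 bp from Gas5 on the opposite strand, fell with 76, 72 and 98 counts against 41, 43 and 19 (log2 fold change −1.65 ± 0.49; adjusted p = 0.0170). The call of Zbtb37 was lost with length correction (adjusted p = 0.120), without control replicate 3 (0.0691), without knockout-labelled replicate 3 (0.0514), and without replicate 3 of both groups (0.129).

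The genes whose profile over the 6 libraries was most like that of a member were found by Euclidean distance between centred log2 CPM profiles, among 3705 genes with an average log2 CPM of 3 or more. For Malat1 they were Taf1d (distance 0.156), March6 (0.159) and Cnot6 (0.163). Slc11a2 (0.184), an iron transporter, Eif4a2 (0.190), a translation initiation helicase, and Hk3 (0.201), a hexokinase, were nearest to Neat1. For Gas5 they were Gatad2a (0.110), Supt20 (0.16) and Map4k4 (0.168). Taf1d and Eif4a2 are themselves hosts, with 8 and 5 annotated snoRNA loci.

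Other long noncoding snoRNA hosts gave mixed results. Of 14 listed by name, 9 were measured: 1 rose, 2 fell and 6 were not called, with a median log2 fold change of −0.22. Of the names not measured, Snhg9 and Snhg11 were below the filter, and the others matched no symbol in GENCODE M21. Without control replicate 2 the counts were 2 higher and 1 lower. Snhg20 rose, with 5.20, 5.74 and 6.36 CPM in the control libraries and 13.2, 18.7 and 26.5 CPM in the others (log2 fold change 1.76 ± 0.22; edgeR, adjusted p = 5.71e-05), and it has no snoRNA annotated within its bounds in GENCODE M21. Snhg15 fell from 10.96 ± 0.668 to 7.65 ± 0.437 CPM (log2 fold change −0.52 ± 0.15; adjusted p = 0.0136), a call lost with library totals alone (−0.35). Zfas1 fell from 2.44 ± 1.29 to 0.710 ± 0.383 CPM (log2 fold change −1.78 ± 0.52; adjusted p = 0.0158), a call lost without control replicate 2 (adjusted p = 0.0968). Of all 59 annotated long noncoding hosts outside the 9 genes, 18 were measured, with 1 higher and 3 lower (2 higher without control replicate 2, 0 higher without knockout-labelled replicate 1). The 1 higher was Cct6a, a chaperonin gene that this annotation files as noncoding (log2 fold change 0.37 ± 0.10), named after its value was seen.

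Protein-coding hosts were divided. Of 30 listed, all measured, 13 rose, 9 fell (5 with library totals alone) and 8 were not called, with a median log2 fold change of 0.12. Eif4a1, a translation initiation helicase, rose by 1.69 ± 0.12, Nop58, a core box C/D protein, by 1.68 ± 0.15 and Rpl3, a ribosomal protein, by 1.31 ± 0.11 on the log2 scale (SE). Rps2, another ribosomal protein, fell by 3.49 ± 0.28, from 21.8 ± 0.859 to 1.93 ± 0.834 CPM. Sequence copies were not sought for these protein-coding genes, and how reads in shared stretches were assigned was not tested. Among 194 measured of 259 annotated protein-coding hosts, 48 rose and 52 fell. With library totals alone 57 were higher and 30 lower, and with length correction 58 and 36.

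Genes for the proteins that bind snoRNAs or assemble their complexes were called higher more often than lower. Of 18 snoRNP core and assembly genes, 10 rose, 1 fell and 7 were not called, with a median log2 fold change of 0.69. Over all genes tested, 21.0% were called higher and 22.3% lower. Nop10, a box H/ACA protein, rose from 19.9 ± 2.18 to 85.5 ± 4.22 CPM (log2 fold change 2.11 ± 0.12; edgeR, adjusted p = 7.57e-08). Nop58 rose from 19.1 ± 3.77 to 61.3 ± 4.52 CPM, its box C/D partner Nop56 from 66.5 ± 10.8 to 176.5 ± 13.7 CPM and the H/ACA protein Nhp2 from 208.0 ± 19.8 to 515.6 ± 69.5 CPM. The pseudouridine synthase Dkc1 also rose (1.45), while Fbl, the box C/D methyltransferase, was the 1 that fell (−0.73), and with library totals alone none of the 18 was called lower. Dkc1 and Fbl were named after their values were seen. Nop58, Nop56 and Dkc1 also stand in the list of protein-coding hosts and are counted in both lists.

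Factors of nonsense-mediated decay, the pathway that removes many spliced host RNAs, were divided. Of 14, 3 rose, 5 fell and 6 were not called, with a median log2 fold change of −0.33. Smg1, the kinase that activates the pathway, fell from 18.0 ± 1.63 to 5.70 ± 0.150 CPM (log2 fold change −1.66 ± 0.14; −0.92 with length correction). The exon junction proteins Eif4a3 (0.88 ± 0.10) and Rbm8a (0.91 ± 0.10) rose on the log2 scale. The central helicase gene Upf1 was not called.

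Paraspeckle proteins bind Neat1, and nuclear speckle proteins share their compartment with Malat1. Of 12 paraspeckle genes, 4 rose, 1 fell and 7 were not called, with a median log2 fold change of 0.35. The number lower was 0 with library totals alone and without control replicate 1 or 2 or knockout-labelled replicate 1 or 3, and 2 without control replicate 3. Hnrnpk, an RNA-binding protein needed for the long form of Neat1, rose from 114.4 ± 5.11 to 660.0 ± 23.1 CPM (log2 fold change 2.53 ± 0.11; edgeR, adjusted p = 1.28e-08), whereas the structural protein Nono rose from 39.7 ± 3.36 to 64.9 ± 4.56 CPM. Nudt21 rose by 0.90 ± 0.22 and Tardbp by 0.36 ± 0.12 on the log2 scale, and the call of Tardbp was lost without control replicate 1 or 2, without knockout-labelled replicate 1 or 3 and without replicate 3 of both groups (log2 fold changes of 0.31 to 0.33 for the 4 single libraries and 0.34 for the last). Of 12 nuclear speckle genes, 3 rose, 2 fell and 7 were not called, with a median of 0.04, and with length correction 7 were higher and 1 lower. Only 1 was lower without control replicate 1 or 2 and without knockout-labelled replicate 1, 2 or 3. The splicing factor Srsf3 (1.13 ± 0.11), the RNA helicase Ddx39b (0.93 ± 0.12) and the speckle scaffold Son (0.64 ± 0.12) rose, while the scaffold Srrm2 fell by 1.49 ± 0.15.

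RNAs without a poly(A) tail were listed because the mature end of Malat1 is made by cleavage and has none. Rn7sk, a nuclear RNA that restrains transcription elongation, fell from counts of 304, 243 and 301 in the controls to 24, 7 and 33 in the others (log2 fold change −4.04 ± 0.49; edgeR, adjusted p = 3.55e-05). Histone transcripts went up: Hist1h4d by 1.84 ± 0.39, Hist1h2ae by 2.26 ± 0.57 and Hist1h1b by 1.85 ± 0.55 on the log2 scale, with the call of Hist1h1b lost without knockout-labelled replicate 2 (1.74), without knockout-labelled replicate 3 (1.67) or without replicate 3 of both groups (1.81). Over the list, 3 of 4 measured genes were higher and 1 was lower, out of 10 listed, not all of which matched a symbol. Without knockout-labelled replicate 2, where 5 were tested, 2 were lower. The part of poly(A) selection in the fall of Malat1 was not tested.

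**Figure D4:**
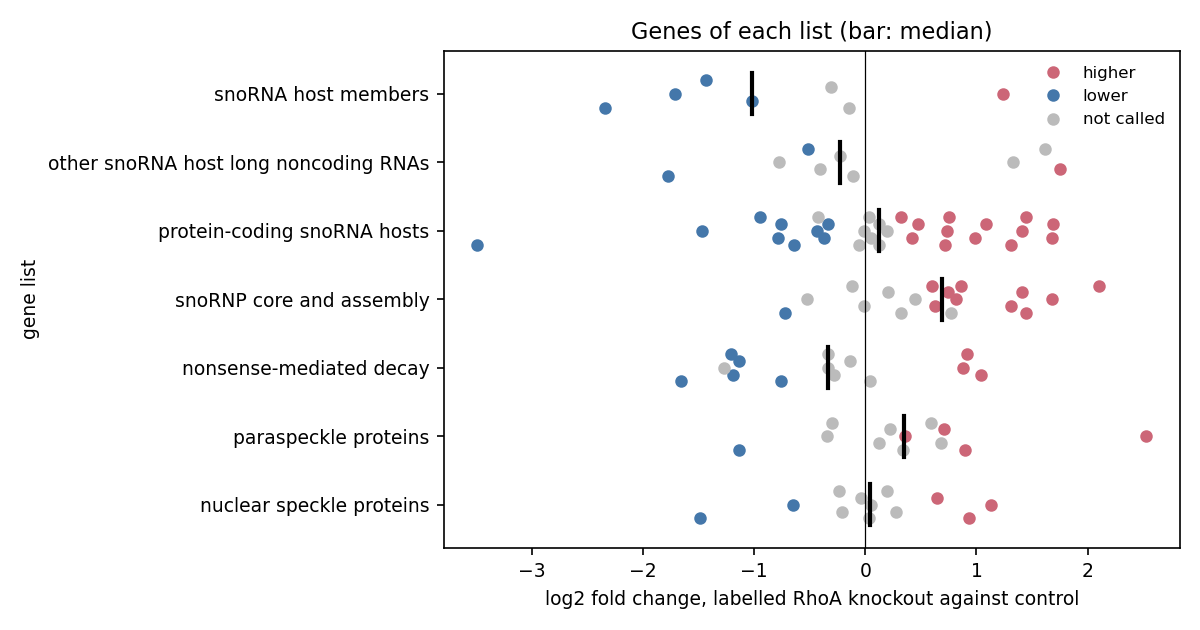
Fitted log2 fold changes of single genes in each list, knockout-labelled against control libraries, coloured by call, with a bar at the median of the list. The 7 snoRNA host members, shown without Malat1 and Neat1, have their median at −1.02, and the snoRNP core and assembly genes have theirs at 0.69.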

How the data were processed

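The authors deposited whole-number counts per gene for 6 libraries of total RNA made with an Illumina kit, without normalization. The build was GRCm38, per the submitters' processing notes. Aligner, counter and strand setting were not given in the sources used here. Of 55487 gene IDs, 55227 matched GENCODE M21 without their version and 260 did not.

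Counts were fitted with edgeR 4.0.16 (limma 3.58.1, R 4.3.3): TMM factors, filterByExpr defaults, robust glmQLFit and glmQLFTest, adjusted by Benjamini-Hochberg over 12930 genes, with a common biological coefficient of variation of 0.323. The fit was tested on simulated data. CPM are TMM-scaled, except the summed marker levels, which are scaled by library totals. Copies of the members, and of no other genes, were sought with blastn 2.17.0 at 95% identity over 200 bp. Alternatives included DESeq2 1.42.0, other scaling and filters, a replicate block, length correction, counts divided by 4 and each library left out. Counting floors cover counting error only.

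The members and lists were chosen with earlier results of these data known. Named genes are the members, their overlapping, adjacent and most similar genes, and up to 4 called genes with the smallest p in each list. Some genes that this rule takes are not reported here.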

Additional observations from a re-analysis of the deposited data

How the results depend on the processing

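Neat1, Gas5, Snhg1, Snhg3 and Snhg12 had the same call and direction under all 17 alternatives, and Snhg5 was called under none. Among the 9 genes the number called higher was 1 under every alternative, and the number called lower was 6, or 5 with library totals alone, with the filter at 1 CPM in 3 libraries, under which Snhg6 was not tested, or with length correction. Leaving out 1 library gave 4 to 6 lower. Over all genes, the replicate block gave 2634 higher and 2738 lower calls, against 2713 and 2879 without it, and 1 higher and 6 lower calls among the 9 genes. Deviations of libraries with the same number had correlations of −0.006, 0.028 and 0.014, so the numbers were not taken to pair the samples. The call of Zfas1 was lost under the block (adjusted p = 0.0512). Leaving out 1 library gave 2286 to 2673 higher and 2403 to 2640 lower calls over all genes, and 0.71 to 1.18 for the log2 difference in the ratio of Malat1 to Neat1.

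The direction of Snhg8 was reversed without control replicate 2 (0.18) and without knockout-labelled replicate 1 (0.07), and its values with 1 library left out ran from −0.42 to 0.18. Frmd8 was reversed to 0.0077 with RLE factors, to 0.0076 with DESeq2, to 0.16 with library totals alone, to 0.13 with length correction and without control replicate 1, and to 0.05 without knockout-labelled replicate 1, with values of −0.12 to 0.13 when 1 library was left out. Gm17300 was reversed to −0.15 without knockout-labelled replicate 2, the lowest of a range up to 0.79 when 1 library was left out. The cause was not tested. By length of the longest transcript, Snhg12 ranked 7 and Snhg8 ranked 8 in the controls. For the 50 other named genes, 794 of 847 alternatives gave the same call and direction. Leaving out replicate 3 of both groups and summing Malat1 with Gm37376 were chosen after the data were seen. The 95% intervals of Snhg6 and Snhg8, at about 1 CPM, were the widest of the 9 genes.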

Other observations

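Other long noncoding RNAs with known roles in chromatin, imprinting or proliferation were mostly not called. Of 20 listed, not all of which matched a symbol in GENCODE M21, 10 were measured, with 2 higher, 1 lower and 7 not called. The counts were 1 higher and 2 lower without control replicate 1, control replicate 3, knockout-labelled replicate 1, knockout-labelled replicate 2 or replicate 3 of both groups, and 2 were lower without knockout-labelled replicate 3. 2900097C17Rik rose by 0.83 ± 0.17 (SE) on the log2 scale, with means of 9.89 ± 0.157 and 17.5 ± 4.10 CPM (SD, n = 3 per group). Pvt1, the long noncoding neighbour of Myc, fell from 5.52 ± 1.24 to 2.75 ± 0.0665 CPM (log2 fold change −1.0 ± 0.23). Kcnq1ot1, an imprinted antisense RNA, had a log2 fold change of 0.35 ± 0.12 (edgeR, adjusted p = 0.0300), a call lost without control replicate 1, 2 or 3 and without knockout-labelled replicate 1 or 2 (log2 fold changes of 0.31 to 0.38), and a value of 1.39 with length correction. Of 647 long noncoding genes measured, 72 were higher and 79 lower, with a median log2 fold change of −0.01. Among 88 genes of cytosolic ribosomal proteins, a class known for an oligopyrimidine start, 26 rose, 14 fell (8 with library totals alone) and 48 were not called, with a median of 0.13. The search for a C or T run found it in 54.5% of 77 promoters of such genes.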
